A study of Mus musculus with 3 samples.

Results

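The 10 genes described here direct the dorsal telencephalon towards excitatory cortical neurons: Emx1, Emx2, Lhx2, Neurog1, Neurog2, Eomes, Tbr1, Neurod2, Neurod6 and Fezf2. They are 10 of 21887 protein-coding genes placed in the annotation and were chosen by name, with earlier results of these data known. Their loci were read in a CUT&Tag experiment on the transcription factor MEIS2, an assay that directs a DNA-cutting transposase to sites occupied by an antibody's target and sequences the released fragments. Cells came from the lateral ganglionic eminence (LGE) of wild-type CD1 mice at embryonic day 14.5, with 2 libraries made with a mouse polyclonal MEIS2 antibody and 1 library made with no primary antibody. All 3 share tissue, strain and age. The labels do not say whether the libraries came from separate embryos or litters, so differences between the replicates may be technical. A locus was the gene and 50 kb on each side, and a peak was placed by its summit. A peak was called reproducible when a replicate 1 peak shared at least 1 bp with a replicate 2 peak and none with a no-antibody peak. The 10 loci held 42 such peaks of 47809 in the genome. All positions are mm10.

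The dorsal telencephalon (pallium) makes glutamatergic cortical neurons, and the ventral telencephalon, of which the LGE is a part, makes GABAergic neurons, among them the projection neurons of the striatum. Emx1, Emx2 and Lhx2 are homeobox genes that pattern dorsal progenitors, and Neurog1 and Neurog2 are the proneural basic helix-loop-helix genes of those progenitors. Eomes (also called Tbr2) marks intermediate progenitors, Tbr1 and Fezf2 specify deep-layer neurons, and Neurod2 and Neurod6 act in maturing excitatory neurons. Most of the 10 are expressed mainly in the pallium, and peaks in LGE cells show where MEIS2 signal lay and say nothing of whether a gene was on. The peak lists hold no expression values, so the labelled tissue could not be checked against its marker genes.

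All 10 loci carried at least 1 reproducible MEIS2 peak, as did 92.8% of protein-coding genes, a count near the background. Neurod2 and Lhx2 had the most, 7 each, and Emx1 had 6, Neurog1 5, Emx2 and Tbr1 4 each, Neurog2 and Neurod6 3 each, Eomes 2 and Fezf2 1. Scaled to window length, the counts ran from 0.928 peaks per 100 kb at Fezf2 to 6.72 at Neurod2, with a median of 3.67 over the 10 genes against 2.70 over all protein-coding genes. Neurod2 stood at percentile 89.9 of protein-coding genes and Fezf2 at percentile 15.2, and 8 of the 10 lay above the genome's median. With 50% reciprocal overlap between replicates the medians were 2.27 for the 10 genes and 2.27 for all, so the higher density depended on the overlap rule. With only the 5000 strongest peaks per library both medians were 0. The 10 genes stayed above all genes with windows of 25 kb (5.28 against 2.77) and 100 kb (2.92 against 2.55). They also did with a −log10 q of at least 5 (2.27 against 1.78) and in replicate 2 alone (5.50 against 3.90) or replicate 1 alone (5.04 against 4.03). The difference in density was not tested. Replicate 1 had 62 peaks at these loci and replicate 2 had 58. None of the 62 overlapped a no-antibody peak, and 42 of them (67.7%, 95% Wilson interval 55.4 to 78.0) had a replicate 2 partner, against 65.2% in the genome. That order turned with 50% reciprocal overlap (45.2% against 56.7%) and with a −log10 q of at least 5 (47.9% against 62.0%). The no-antibody library had 1 peak at the 10 loci, beside Neurod6, so 1 of 10 genes had such a peak against 26.6% of protein-coding genes.

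**Figure D1:**
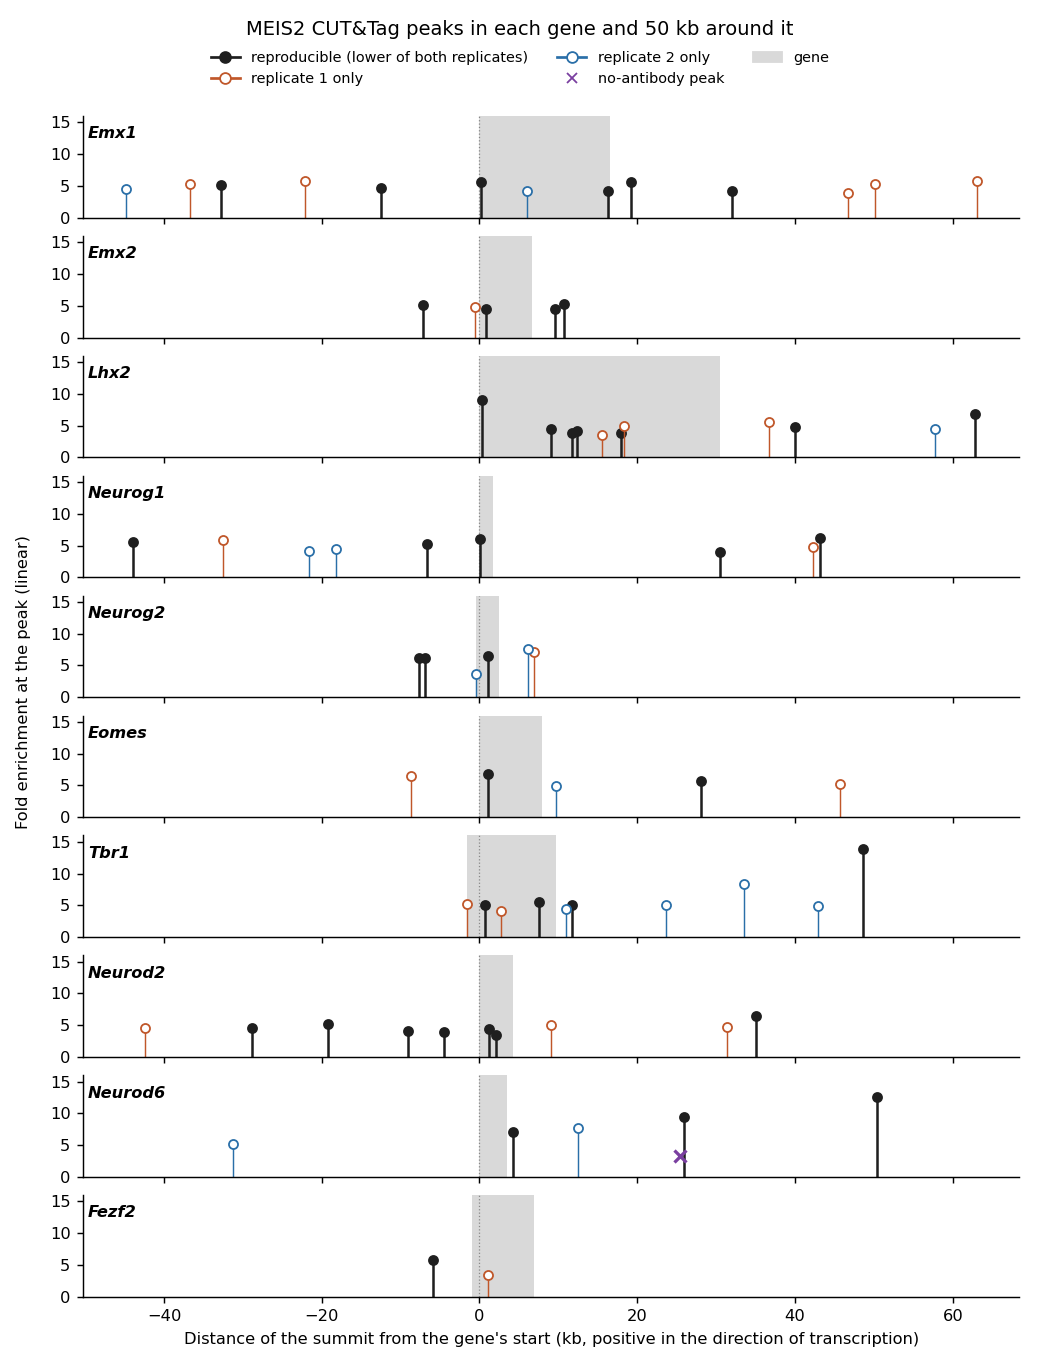
Each row is a gene, the horizontal axis is the distance of a peak's summit from the gene's start in kb, and the height is the peak caller's fold enrichment on a linear scale (the lower of both replicates for reproducible peaks, filled). Open symbols are peaks of a single replicate, the cross is the no-antibody peak and grey bars are the genes. The tallest reproducible peaks lie far downstream of Tbr1 and Neurod6, and Fezf2 has a single reproducible peak.

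The 10 genes differed in whether a peak covered the promoter. RefSeq start sites (GRCm38.p6, the assembly that mm10 names) were found for all 10 genes, 11 in all because Lhx2 has a second one, and the 250 bases before each start were compared with the peaks. A reproducible peak overlapped 4 of the 11 promoters, those of Emx1, Neurog1 and both starts of Lhx2, against 32% of all 32851 listed promoters. The following promoters are shown because they carry this contrast: the first 3 were overlapped by a reproducible peak and the last 3 were not. They are written 5′ to 3′ on the gene's strand up to the base before the start, and capitals mark CpG dinucleotides.
Emx1, chr6:85187681-85187930, plus strand: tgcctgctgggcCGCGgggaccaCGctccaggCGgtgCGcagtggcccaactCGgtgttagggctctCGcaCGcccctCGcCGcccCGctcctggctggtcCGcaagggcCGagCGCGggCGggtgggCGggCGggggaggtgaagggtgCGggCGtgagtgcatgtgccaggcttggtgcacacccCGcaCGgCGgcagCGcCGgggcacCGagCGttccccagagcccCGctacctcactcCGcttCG
Neurog1, chr13:56252181-56252430, minus strand: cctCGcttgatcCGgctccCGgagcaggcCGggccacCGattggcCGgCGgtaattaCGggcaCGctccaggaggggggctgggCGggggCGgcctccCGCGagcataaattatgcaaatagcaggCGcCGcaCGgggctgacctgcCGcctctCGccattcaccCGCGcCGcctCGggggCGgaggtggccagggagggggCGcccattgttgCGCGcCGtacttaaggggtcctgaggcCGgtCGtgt
Lhx2, chr2:38339031-38339280, plus strand: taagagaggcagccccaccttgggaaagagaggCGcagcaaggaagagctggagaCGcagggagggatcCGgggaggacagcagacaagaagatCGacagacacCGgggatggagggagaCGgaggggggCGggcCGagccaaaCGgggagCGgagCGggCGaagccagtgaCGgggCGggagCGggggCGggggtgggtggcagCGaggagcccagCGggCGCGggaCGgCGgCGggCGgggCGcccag
Emx2, chr19:59458440-59458689, plus strand: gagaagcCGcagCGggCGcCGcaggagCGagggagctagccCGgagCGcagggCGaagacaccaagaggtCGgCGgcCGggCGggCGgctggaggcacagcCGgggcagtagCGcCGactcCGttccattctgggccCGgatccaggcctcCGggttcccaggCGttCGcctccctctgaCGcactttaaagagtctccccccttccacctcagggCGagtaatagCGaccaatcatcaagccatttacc
Eomes, chr9:118477939-118478188, plus strand: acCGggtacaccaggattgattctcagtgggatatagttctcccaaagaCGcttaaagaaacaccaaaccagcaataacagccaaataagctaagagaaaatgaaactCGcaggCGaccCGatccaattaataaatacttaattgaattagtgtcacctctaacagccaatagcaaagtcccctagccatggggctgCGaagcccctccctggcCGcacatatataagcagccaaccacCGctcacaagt
Neurod6, chr6:55681264-55681513, minus strand: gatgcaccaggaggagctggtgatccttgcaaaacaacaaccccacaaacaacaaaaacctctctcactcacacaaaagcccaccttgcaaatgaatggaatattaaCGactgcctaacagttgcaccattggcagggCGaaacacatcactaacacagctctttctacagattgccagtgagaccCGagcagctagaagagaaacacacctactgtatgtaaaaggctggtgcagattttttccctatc

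The overlapped promoters were the CpG-dense ones. The Emx1 promoter held 30 CpGs and 75.6% G and C, and all 250 of its bases lay inside a peak in both replicates. Neurog1 had 29 CpGs, with 250 bases inside the replicate 1 peak and 186 inside a replicate 2 peak. At the start of Lhx2 shown above there were 25 CpGs, with 114 and 125 bases covered, and at the second Lhx2 start there were 24, with 160 and 135 covered. The Emx2 promoter had as many CpGs as that second start (24) without a reproducible peak: replicate 1 covered 131 of its bases and replicate 2 none. The other 6 promoters had 14 CpGs (Fezf2), 11 (Neurod2), 8 (Eomes and Neurog2), 5 (Tbr1) and 3 (Neurod6). No peak of either replicate reached their 250 bases. At Tbr1, Neurog2 and Fezf2 the annotated gene begins upstream of these bases, and the promoter at that outer end was not examined. In a single replicate, a peak covered the outer end at Tbr1 and at Neurog2.

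The same order held over all listed promoters. A reproducible peak overlapped 1.11% of promoters with 0 to 4 CpGs, 14.9% of those with 5 to 9, 50.6% with 10 to 14, 74.3% with 15 to 19, 87.5% with 20 to 24 and 95.4% (Wilson interval 94.7 to 96.1) with 25 or more. Overlapped promoters had a median of 20 CpGs and the others 3. No-antibody peaks overlapped at most 0.163% of the promoters in any of these CpG classes. From the lowest class to the highest these were 7, 7, 1, 5, 0 and 1 promoters, too few to show or deny such an order. Emx1, Neurog1 and Lhx2 were covered in classes where most promoters were, and Tbr1, Eomes, Neurog2 and Neurod6 were uncovered in classes where few were. Emx2 was uncovered in a class where 87.5% were covered. Whether CpG content has a part in the peaks was not tested.

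**Figure D2:**
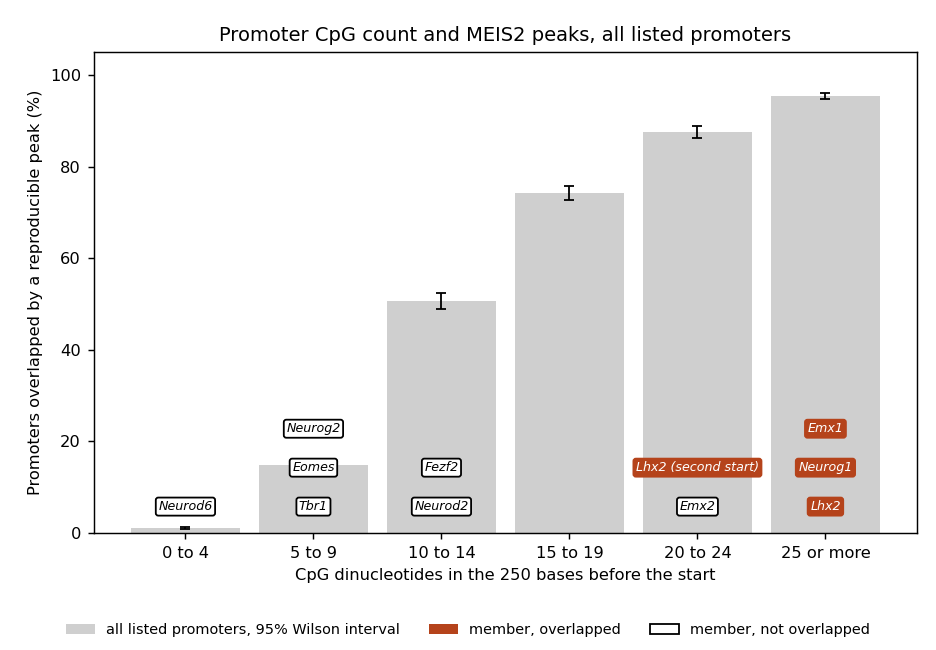
Bars give the share of all listed promoters (percent, 95% Wilson interval) overlapped by a reproducible MEIS2 peak, by the number of CpG dinucleotides in the 250 bases before the start. Boxes place each dorsal gene in its class, filled where its promoter was overlapped. The share rises from 1.11% to 95.4%, and the 4 overlapped promoters sit in the highest classes.

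TGACAG, the core motif of MEIS proteins, was about as frequent in these promoters as in all. Searched on both strands in the window from 250 bases before to 50 after a start, the letters were found at Tbr1 and Neurod2 only, 2 of 11 windows, against 19.2% of all listed windows. Neither window was overlapped by a peak. These 30-base stretches show the matches in capitals, on the gene's strand; at Tbr1 the match is on the opposite strand, so the capitals there read as its reverse complement.
Tbr1, chr2:61804423-61804452: ttaatgtctatctaattaaattaCTGTCAg
Neurod2, chr11:98329749-98329778: tggagtagagagTGACAGatggcggcgggt

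Over all windows, 14.7% of those overlapped by a reproducible peak held TGACAG and 21.5% of the others did. The longer PBX and MEIS core TGATTGAC was in none of the 11 windows and in 0.770% of all. TAATTA, a homeodomain core, was at Tbr1 (2 matches), Neurog1 and Emx2, 3 of 11 windows against 5.29% of all, and CAGCTG, an E-box of proneural factors, was in none against 16.3%. TAATTA was in 1.34% of the windows with a peak and in 7.28% of those without. These are matches of letters in short windows, and the sequences of the peaks away from the starts were not analysed here.

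Counted by summit rather than by promoter overlap, the start had a reproducible peak less than 1 kb away in 5 of the 10 genes (Emx1, Emx2, Lhx2, Neurog1 and Tbr1), against 54.3% of the 17492 protein-coding genes with a listed start. Within 2.5 kb there were 8 of 10 against 58%, and Neurod6 and Fezf2 were the 2 without. The extra 3 were Eomes, Neurog2 and Neurod2, whose summits lay 1047, 1111 and 1216 bp downstream of the start in replicate 1 and 1046, 763 and 1152 bp in replicate 2. Genome-wide, only 6.29% of genes with a peak within 2.5 kb had their nearest summit more than 1 kb from the start. The nearest summit lay downstream in 7 of the 8 genes in replicate 1 and in 6 in replicate 2, against 68.6% of genes. By either annotated gene end, the count within 1 kb was 5 of 10 (Emx1, Emx2, Lhx2, Neurog1 and, at its 3′ end, Neurod6), against 52.4% of protein-coding genes. That count depends on the distance and on the use of the summit: it was 3 at 0.5 kb, 9 at 2.5 kb, and 8 when any overlap with the 1 kb zone was enough, where all protein-coding genes gave 43.2%, 60.7% and 54.8%.

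**Figure D3:**
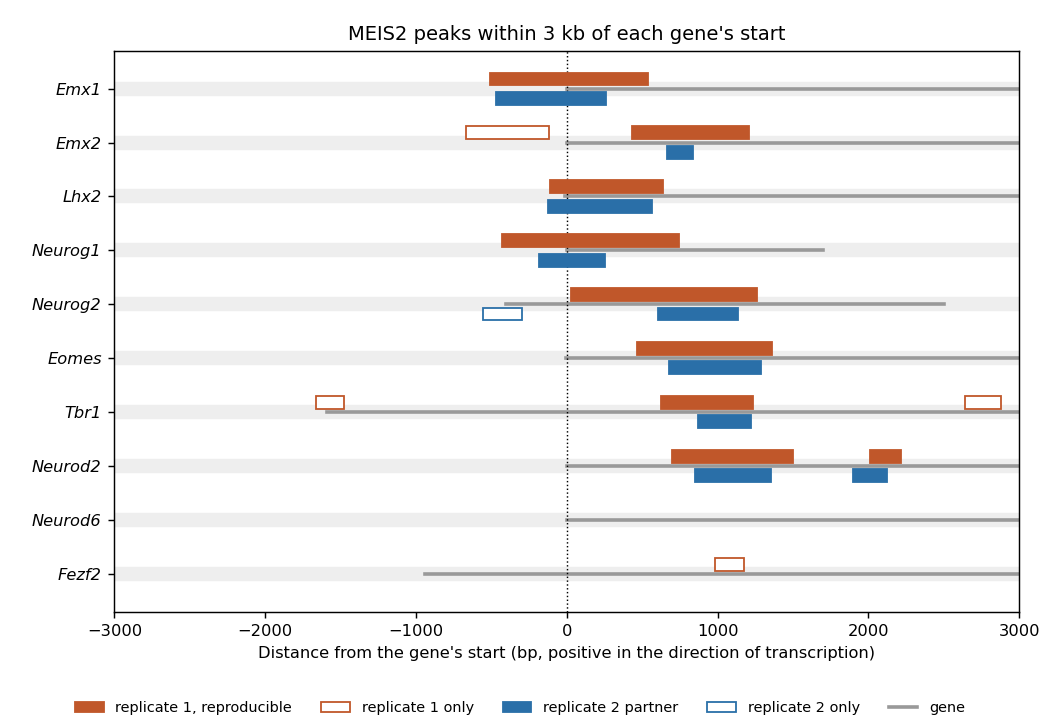
Each row is a gene and the horizontal axis is the distance from its start in bp (for Lhx2 the start whose promoter is shown above). Upper boxes are replicate 1 peaks and lower boxes replicate 2 peaks, filled where they are reproducible, and the grey line is the gene. Peaks span the start at Emx1, Lhx2 and Neurog1 and lie inside the gene at Emx2, Neurog2, Eomes, Tbr1 and Neurod2.

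Among the patterning genes, Lhx2 had the strongest peak at a start of the 10 genes. The LIM homeobox gene Lhx2 carried it at chr2:38339167-38339921, with fold enrichments of 9.06 in replicate 1 and 11.3 in replicate 2 and pileups of 21 and 22 tags. The fold enrichment is the peak caller's ratio of tags at the summit to the locally expected number, and the pileup is the number of stacked tags, not scaled to depth. Of the 11 reproducible peaks within 2.5 kb of a member's start, this was the only one whose pileup was not lower in replicate 2. After filtering, replicate 2 kept 0.861 times the tags of replicate 1. The second start of Lhx2 was flanked by 2 weaker peaks, chr2:38350939-38351217 (3.77 and 4.24) and chr2:38351511-38351952 (4.49 and 4.14). Another 2 lay inside the gene, at chr2:38348177-38348516 (4.53 and 4.76) and chr2:38356888-38357216 (3.79 and 5.52), and 2 lay beyond its 3′ end, 9.60 kb away (6.28 and 4.84) and 32.3 kb away (8.22 and 6.81). All 7 had Lhx2 as their nearest protein-coding gene.

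The paralogs Emx1 and Emx2 differed at their starts. The Emx1 peak, chr6:85187424-85188467, spanned the start over 1044 bp in replicate 1 and 733 bp in replicate 2, with folds of 5.62 and 5.65. The Emx2 peak, chr19:59459124-59459898, lay 804 bp inside the gene, with folds of 5.86 and 4.54, and it was 775 bp wide in replicate 1 and 172 bp in replicate 2. On the other side of the Emx2 start, over the antisense RNA Emx2os, replicate 1 had a further peak (chr19:59458019-59458570, fold 4.84, pileup 17) with no replicate 2 partner. Emx1 also had a peak 237 bp from its 3′ end (5.24 and 4.22) and peaks 12.4 kb upstream of its start (4.70 and 5.10) and 2.71 kb beyond its end (6.11 and 5.58). Its other 2 peaks were nearer to Spr (5.18 and 5.11) and Sfxn5 (5.08 and 4.12). Emx2 had 3 more, 7.14 kb upstream (5.29 and 5.10), and 2.88 kb (5.85 and 4.51) and 4.07 kb (5.32 and 6.82) beyond its end. None of the reproducible peaks at either Emx locus reached the genome's median for the lower of the 2 folds, 5.94.

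The proneural genes both carried a wide peak. At Neurog1 it spanned the start (chr13:56251433-56252609, 1177 bp in replicate 1 and 442 bp in replicate 2), with folds of 6.32 and 6.0. At Neurog2 it lay inside the short gene (chr3:127633164-127634399, 1236 and 531 bp), with folds of 7.12 and 6.49. In replicate 1 the Neurog2 peak began just after the listed start at chr3:127633136. The replicate 1 widths of these 2 peaks exceeded those of 94.3% and 95.7% of reproducible peaks within 2.5 kb of a protein-coding start. Neurog2 had 2 neighbouring peaks upstream, at −7.69 kb (7.13 and 6.13) and −6.89 kb (6.11 and 7.88) from its start, at the lncRNA Gm40147. A weak replicate 2 peak (fold 3.74, pileup 8) lay at −476 bp, 73 bp from the annotated 5′ end of Neurog2, without a replicate 1 partner. Downstream of Neurog2 each replicate had a peak of its own, 6.88 kb from the start in replicate 1 (fold 7.05) and 6.19 kb in replicate 2 (7.52), which did not overlap and so were not counted. Neurog1 had a peak 6.65 kb upstream (7.08 and 5.20) and 3 others between 28.8 and 43.9 kb from the gene, of which that near the lncRNA 4930550C17Rik had folds as unlike as 8.30 and 4.06.

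The T-box genes Eomes and Tbr1 differed in their distal peaks. Tbr1 held a peak at chr2:61852681-61853516, 38.9 kb beyond its end, with folds of 13.8 and 13.9 and pileups of 59 and 53. It was the highest of the 42 by the lower fold, at percentile 95.1 of all reproducible peaks, and the nearest no-antibody peak was 279 kb away. Tbr1 was its nearest protein-coding gene. Closer to Tbr1 lay a peak inside the gene, 708 bp downstream of the start in replicate 1 and 1174 bp in replicate 2 (5.08 and 5.06), another inside it at chr2:61811546-61812535 (5.45 and 7.15), and a further peak 2.07 kb beyond its end (5.12 and 5.59). At the annotated 5′ end of Tbr1, 1.55 kb before the listed start, replicate 1 alone had a peak (fold 5.28). Between the gene and the strong distal peak, replicate 2 alone had 4 peaks, with folds from 4.47 to 8.29. Eomes alone of the 10 had no reproducible peak away from all gene ends: 9 of 10 had such a distal peak (over 1 kb from every gene end) against 80.8% of protein-coding genes. Its peak inside the gene, chr9:118478657-118479549, had folds of 7.56 and 6.82, and its other peak was at the end of the neighbouring gene Golga4 (7.04 and 5.68). The summit inside Eomes lay 1050 bp from the nearer end of Eomes and 504 bp from an end of the annotated gene Gm33408. With a limit of 0.5 kb it counted as distal. All 10 genes then had a distal peak (84.4% of protein-coding genes), and with 2.5 kb 7 did (73.4%).

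The neuronal differentiation genes Neurod2 and Neurod6 differed in number and strength of peaks. At Neurod2, 2 peaks lay inside the gene, chr11:98328144-98328945 (4.46 and 4.80) and chr11:98327427-98327632 (3.42 and 4.49), the latter at percentile 2.37 of reproducible peaks. The other 5 had another protein-coding gene nearer than Neurod2. They lay at Gm33099 (4.27 and 3.91, and 4.01 and 4.24), at the ends of Ppp1r1b (6.63 and 5.12) and Stard3 (6.64 and 4.63), and on the side of Cdk12 (6.37 and 9.42). Ppp1r1b encodes DARPP-32, a marker of striatal projection neurons, so the window of this dorsal gene also holds a striatal gene, and the count of 7 is of the window, not of Neurod2 alone.

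Neurod6 had no peak of either replicate within 2.5 kb of its start, but its 3 reproducible peaks were all stronger than the genome's median. They lay at chr6:55676677-55677243, 830 bp beyond its 3′ end (9.23 and 7.01), at chr6:55655154-55655451 (11.0 and 9.43) and at chr6:55630754-55631197, 46.9 kb from the gene and inside the lncRNA Gm34441 (16.7 and 12.6, pileups of 30 and 20). The last was at percentile 93.4 by the lower fold. Neurod6 was the nearest protein-coding gene to all 3. The middle peak lay only 363 bp from the no-antibody peak chr6:55655814-55656111 (fold 3.34, pileup 14), without overlapping it, and the part of background cutting in it was not tested. At the other 9 loci the nearest no-antibody peak was at least 102 kb from any reproducible peak.

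Fezf2, a zinc finger gene of subcerebral projection neurons, had the least. Its single reproducible peak, chr14:12351621-12351812, lay at −5.90 kb from the start, with folds of 7.94 and 5.74 and pileups of 15 and 8. Inside the gene, replicate 1 alone had a weak peak 1054 bp from the start (fold 3.46, pileup 12). Of protein-coding genes, 92.8% had at least as many reproducible peaks in their window.

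The peaks near the starts had a lower median fold than such peaks in the genome. The 11 reproducible peaks within 2.5 kb of a member's start had a median replicate 1 pileup of 21 tags, against 18 for the genome's 10446 peaks near protein-coding starts, but the single peaks varied: that of Tbr1, with 13 tags, was at percentile 20.7 of peaks near starts and those of Eomes and Neurog2, with 24 tags, at percentile 85.3. The median lower fold of the 11 was 5.06, against 6.19. The 11 came from 8 genes, and the lowest of these folds were at Neurod2 (3.42) and Lhx2 (3.77), which also had the highest (9.06). Of the peaks nearest the start in the 8 genes, 5 were below the median lower fold of all reproducible peaks, 5.94. The locally expected pileup of the 11, recovered from the deposited pileup and fold, was 2.75 tags at the median against 1.46. Its part in the lower folds was not tested. Among the 11 it was highest under the 2 Neurod2 peaks (4.27 and 4.16 tags) and lowest under the strong Lhx2 peak (1.43), followed by Tbr1 (1.75). Over all 42 peaks the median lower fold was 5.16 against 5.94 for all reproducible peaks, 29 of the 42 were below the genome's median and 2 (at Tbr1 and Neurod6) were among its highest 10%. The median folds at the 42 peaks were 5.99 in replicate 1 and 5.55 in replicate 2. Genome-wide these were 7.26 and 6.38, so the members' medians were lower in each replicate.

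**Figure D4:**
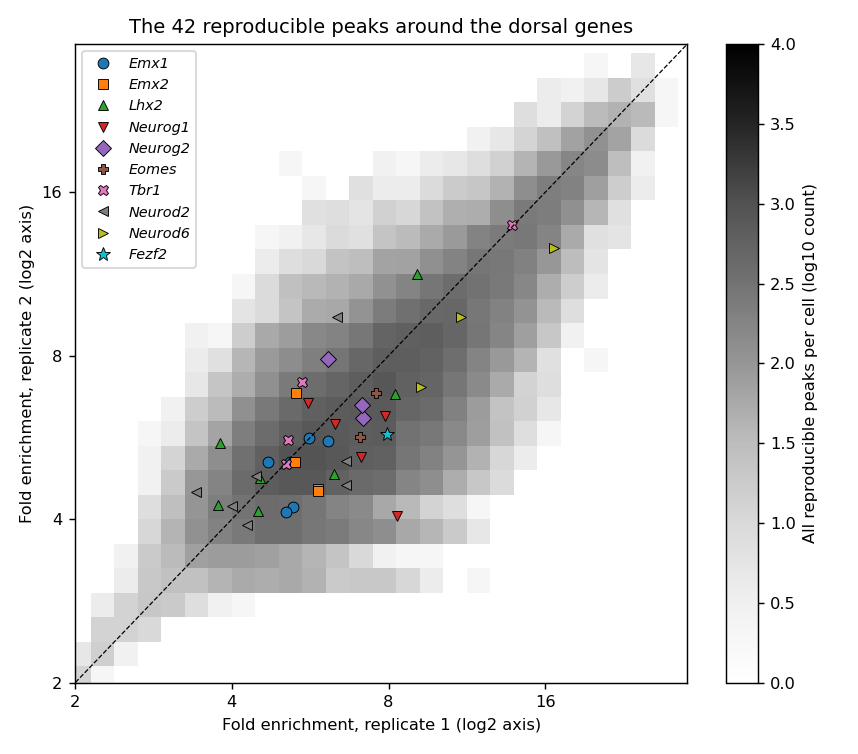
Points are the 42 reproducible peaks, with the fold enrichment of replicate 1 on the horizontal and of replicate 2 on the vertical axis (log2 axes). Shading is the number of all reproducible peaks per cell (log10), and the dashed line marks equal folds. Most points lie between 4 and 8 in both replicates, and the Tbr1 distal peak (13.8 and 13.9) and the farthest Neurod6 peak (16.7 and 12.6) stand apart.

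By position, 15 of the 42 peaks lay inside a member gene, 14 upstream of the nearest listed start and 28 downstream of it. An end of some annotated gene was within 1 kb of 19 peaks, and 23 were distal. The member was the nearest protein-coding gene for 32 peaks, and for 10 another gene was nearer: Spr and Sfxn5 at Emx1, Golga4 at Eomes, Tifab and Cxcl14 at Neurog1, and the 5 at Neurod2. The 20 replicate 1 peaks without a partner had a median fold of 5.17 and a median pileup of 12 tags, against 5.99 and 16 at the 42. At the 50 kb limit, the farthest peak inside it was that of Neurod6 at 46.9 kb (16.7 and 12.6), and the nearest outside was 50.3 kb from Emx1 (6.50 and 4.50), followed by a strong peak 51.7 kb from Neurog2 (14.2 and 12.3).

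Other lists of genes gave gene-end shares whose intervals overlapped that of the 10 genes. In a list of 25 further dorsal cortical genes, 24 had a reproducible peak in their window and 15 (60%, Wilson interval 40.7 to 76.6) had one within 1 kb of a gene end, where the 10 genes had 5 (50%, 23.7 to 76.3). The strongest at an end were Nr2f2, an orphan nuclear receptor (lower fold 7.92), Bhlhe22, a helix-loop-helix factor (7.64), and Zbtb18, a zinc finger repressor (7.1), while Slc17a6, the vesicular glutamate transporter VGLUT2, had no reproducible peak. In a list of 15 ventral regulators all had a peak in the window and 11 (73.3%, 48.0 to 89.1) had one at an end, among them Dlx6 (7.1) and Isl1 (6.98). In a list of 12 markers of vessels, immune cells, connective tissue and other organs, 5 (41.7%, 19.3 to 68.0) had a peak at an end, led by Myh7 (5.18), Cldn5 (5.07) and Kdr (5.00), and Alb, the liver albumin gene, had none in its window. The medians per 100 kb were 3.67 for the 10 genes, 3.09 for the other dorsal genes, 3.22 for the ventral and 3.03 for the non-neural list. The intervals of the gene-end shares overlap one another and 52.4%, the share of all protein-coding genes, and the differences between lists were not tested. Within 2.5 kb of a listed start the counts were 8 of 10 (80%), 15 of 21 further dorsal genes (71.4%), 12 of 12 ventral (100%) and 2 of 6 non-neural genes (33.3%). The share of all protein-coding genes with a listed start was 58.0%. These shares spread more widely than those at gene ends and were not tested.

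**Figure D5:**
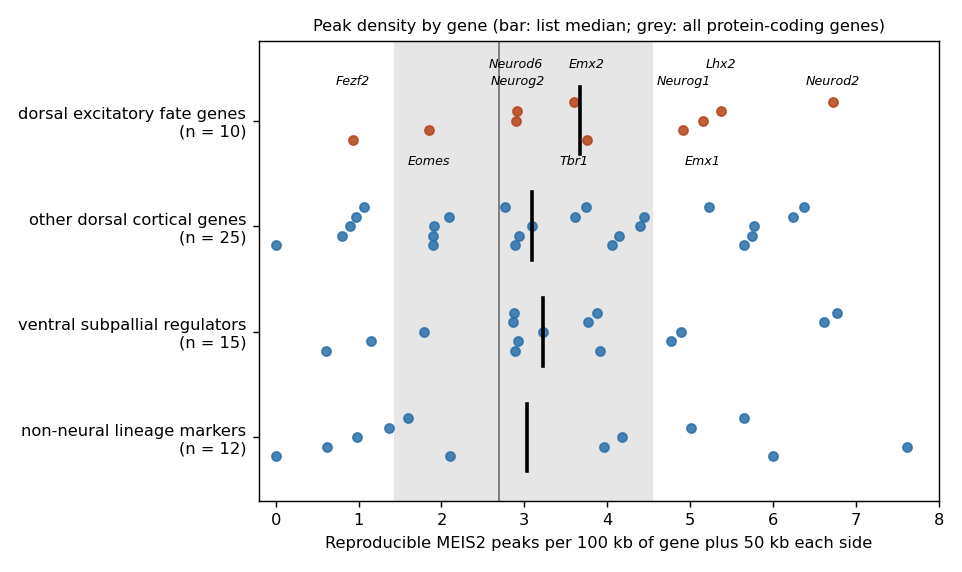
Each point is a gene, placed by its reproducible MEIS2 peaks per 100 kb of window, with the bar at the median of each list. The grey band spans the middle 50% of all protein-coding genes and its line their median, 2.70. The 10 dorsal genes run from Fezf2 at 0.928 to Neurod2 at 6.72 and overlap the other lists throughout.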

How the data were processed

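MEIS2 CUT&Tag peaks from 2 libraries and peaks from 1 library without primary antibody were analysed, grouped by the antibody label. Per the file headers, the authors ran MACS 2.2.7.1 separately on every library without a control file, at a q cutoff of 0.05, keeping at most 1 tag per position. That left 7618406 of 74259592 and 6559629 of 79760948 tags in MEIS2 replicates 1 and 2, and 6337375 of 72763762 without antibody. Other tools, per the submitters' processing notes, were Bowtie2 2.3.4, Trimmomatic and Picard, on mm10, and these notes give MACS2 as 2.1.4. The deposited signal is the pileup, the deposited fold enrichment is a ratio, and the deposited −log10 p-value and q-value are within each library. Positions were used as deposited.

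Overlap and distances were computed in Python 3.11.15 with pandas 2.3.3 on chromosomes 1 to 19, X and Y, and checked on simulated intervals. The expected pileup was recovered as (pileup + 1) / fold − 1. Where several replicate 2 peaks overlapped, the one of highest fold was taken. Gene spans are RefSeq GRCm38.p6, without exons, and start sites and promoters are RefSeq's. Exons and introns were not told apart. Chromosome 18 has no promoter in the table used here, so comparisons by start or promoter leave it out.

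No test between libraries was made, and counts stand beside those of all protein-coding genes. Wilson intervals (95%) cover counting error only and treat genes or peaks as independent. The members and lists were chosen with earlier results of these data known. All 10 members were named; from each other list, the 3 genes with the strongest gene-end peak and up to 3 without any peak, except 1 gene of the ventral list that is not reported here. Alternatives were either replicate alone, 50% reciprocal overlap, a minimum −log10 q of 5, the 5000 strongest peaks, windows of 25 and 100 kb, gene-end distances of 0.5 and 2.5 kb, and overlap in place of the summit.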

Additional observations from a re-analysis of the deposited data

How the results depend on the processing

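Of 52 values under other settings, 33 stayed within 1.5 times the reported count, within the interval of the reported share or within the SD between replicates of the median fold (0.309), and 19 did not. With 50% reciprocal overlap, 3 genes had a gene-end peak (45.4% of protein-coding genes). The median density was 2.27 peaks per 100 kb (2.27 over protein-coding genes as well) and the share with a partner was 45.2% (56.7% in the genome). With −log10 q of at least 5, the loci held 23 reproducible peaks, the density was 2.27 (1.78), the median lower fold 6.11 (7.1) and the share 47.9% (62.0%). At that setting 0 no-antibody peaks were left at the loci, and 14.2% of protein-coding genes had one. Under both settings the share fell below the genome's, and under the first the density no longer lay above it. With only the 5000 peaks of highest fold per library, the loci held 0 reproducible peaks, and no median fold could be given. They held 0 no-antibody peaks, where 16.2% of protein-coding genes had one. Of the 10 genes, 0 had a gene-end peak (0.119% of protein-coding genes) and 0 a distal peak (9.14%). The median density was 0, as over protein-coding genes, and the share with a partner was 0 (74.3% in the genome). That share rests on very few peaks and cannot be compared. The highest replicate 1 folds at the loci were 16.7 (Neurod6) and 13.8 (Tbr1), followed by 11.0. Windows of 100 kb gave 65 peaks. Gene-end distances of 2.5 and 0.5 kb gave 9 and 3 genes (60.7% and 43.2% of protein-coding genes), and any overlap 8 (54.8%). Taking 1 replicate alone gave 58 peaks in replicate 2 and 62 in replicate 1. In that order, 6 and 6 genes had a gene-end peak (55.3% and 60.4% of protein-coding genes). A distal peak was found at 10 and 10 genes (92.04% and 89.98%). The densities were 5.50 and 5.04 (3.90 and 4.03 over protein-coding genes). The median folds were 5.10 and 5.50 (5.74 and 6.16 in the genome). Of these values, only the median fold of replicate 1 alone was among the 19. The cause of the shifts in the 19 values was not tested. No paired analysis was possible because the control is 1 library.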
